A study of Rattus norvegicus with 35 samples.

Results

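The nuclear-encoded subunits and assembly factors of respiratory complexes II, III and IV and of ATP synthase were examined in rat hippocampus. Members were all rows of the unnormalised count table whose gene name begins with Sdh followed by a, b, c or d, with Uqcr, with Cox followed by a digit, or with Atp5. This rule used gene names and no measured value, and it gave 55 of the 15059 genes listed. A filter on low counts kept 53 of the 55 and 14411 genes in all. The other 2, Cox6a2 and Cox6b2, had 0 to 10 and 0 to 13 counts per library.

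These genes encode most of the machinery that turns electrons from fuel into ATP at the inner mitochondrial membrane. Complex II (succinate dehydrogenase) passes electrons from succinate to ubiquinone, complex III passes them on to cytochrome c, complex IV (cytochrome c oxidase) hands them to oxygen, and ATP synthase uses the proton gradient so built to make ATP. Complexes III, IV and V also need subunits made from mitochondrial DNA, so the nuclear and the mitochondrial genome must be expressed together, and neurons depend heavily on the ATP that results.

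The animals were female Sprague Dawley rats of 6 months at surgery, which was ovariectomy or a sham operation. After 2 weeks without treatment, injections were given into the abdomen once daily, and tissue was collected 7 days after their onset. The 7 groups of 5 libraries were sham-operated rats, ovariectomised rats given vehicle, and ovariectomised rats given estradiol (0.16 mg/kg), tamoxifen (3.23 mg/kg) or raloxifene (9.68 mg/kg), which are both selective estrogen receptor modulators, or exemestane (0.16 mg/kg) or anastrozole (4.03 mg/kg), which both inhibit aromatase, the enzyme that makes estrogen from androgen. The doses differ, so the drugs were not compared with each other. The 6 comparisons with vehicle use the same 5 vehicle libraries. The labels do not say that each library is a separate rat, so p-values measure the spread between libraries.

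Promoter sequences from RefSeq (assembly GRCr8), from 250 bases before to 50 bases after each gene's start, were matched to 49 of the 55 members. Sequences of 4 members on which the results below turn are printed 5′ to 3′ on the gene's strand, 200 bases up to the start. Capitals mark a motif on either strand. Uqcrc1 and Uqcrc2 encode the paired core proteins of complex III and moved in opposite directions. Cox17 carries copper to complex IV, and Cox8b is a muscle isoform of a complex IV subunit. The Uqcrc1 sequence lies at chr8:118468023-118468222 on the plus strand, with an NRF1 motif in capitals. The Uqcrc2 sequence lies at chr1:184599040-184599239 on the plus strand, with both copies of an ETS motif. The Cox17 sequence lies at chr11:75912020-75912219 on the minus strand, with a motif of the estrogen-related receptors. The Cox8b sequence lies at chr1:205408274-205408473 on the minus strand, with a TATA box.
Uqcrc1: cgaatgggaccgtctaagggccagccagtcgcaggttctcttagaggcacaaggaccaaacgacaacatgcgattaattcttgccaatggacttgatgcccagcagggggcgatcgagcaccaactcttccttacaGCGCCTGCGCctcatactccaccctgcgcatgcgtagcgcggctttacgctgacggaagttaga
Uqcrc2: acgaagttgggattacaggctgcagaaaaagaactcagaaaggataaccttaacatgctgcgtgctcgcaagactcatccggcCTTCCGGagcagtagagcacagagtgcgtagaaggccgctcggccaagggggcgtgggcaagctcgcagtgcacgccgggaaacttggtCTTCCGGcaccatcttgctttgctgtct
Cox17: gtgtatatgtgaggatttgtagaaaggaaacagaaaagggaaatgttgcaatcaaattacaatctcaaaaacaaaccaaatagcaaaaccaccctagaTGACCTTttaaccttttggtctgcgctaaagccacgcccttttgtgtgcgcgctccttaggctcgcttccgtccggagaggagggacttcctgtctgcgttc
Cox8b: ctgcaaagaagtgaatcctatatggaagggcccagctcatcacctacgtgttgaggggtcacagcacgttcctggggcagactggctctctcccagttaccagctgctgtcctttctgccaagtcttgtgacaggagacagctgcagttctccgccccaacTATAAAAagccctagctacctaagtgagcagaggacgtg

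Letters of 6 motifs were searched on both strands of these promoters. The NRF1 motif, GCGCA and GCGC with any 1 base between them, was in 11 of 49 members' promoters (22.4%) and in 4.25% of all 33469 promoters. The ETS motif CCGGAAG, bound by factors such as GABPA, was in 20 members (40.8%, against 8.75% of all). The motif AAGGTCA of the estrogen-related receptors was in 8 members (16.3%, against 4.61%), and the YY1 motif AAGATGGC was also in 8 (16.3%, against 3.17%). NRF1, GABPA, YY1 and the estrogen-related receptors are known regulators of nuclear genes for respiration. The full estrogen response element, GGTCA and TGACC with any 3 bases between them, at which the estrogen receptor itself binds, was found in 0 members' windows and in 0.0269% of all. The TATA box TATAAAA was in 1 member, Cox8b (2.04%, against 5.96% of all). Some members hold several of these motifs, such as Uqcrc1 with NRF1 and YY1, and the letters GGTCA are common to AAGGTCA and the estrogen response element. The 33469 promoters were not limited to the 15059 genes listed and were not matched to the members in expression. The shares over all promoters are thus no like-for-like standard. These are matches of letters and not binding sites.

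Libraries held 5578204 to 12093294 counts (median 8010522). The members took 0.408 to 0.487% of each library, and the spread of a member within its groups was small, with a median residual standard deviation of 0.0924 on the log2 scale against 0.163 over all genes tested. Hippocampal neuron markers were present in every library, and sham 1 had a summed level of thalamic markers of 252 CPM (counts scaled to a common library total), against 42.3 to 70.4 in the others. The libraries also fell into classes that no label names. In the deposited normalised table each count has been divided by a factor, and this factor varies over genes within a library. The first component of these factors over 14326 genes held 72.3% of their variance and the second 1.69%, and the sign of the first put 20 libraries in class A and 15 in class B. Leaving the members out of the component moved 0 libraries. Every sham and every estradiol library fell in class A, as did 4 of 5 vehicle libraries, with vehicle 4 in class B. Anastrozole had 2 of its 5 libraries in class B, tamoxifen 3, exemestane 4 and raloxifene all 5. Since class and treatment are unevenly crossed, each comparison is given below with group alone and with class added to the fit. All adjusted p-values come from edgeR's quasi-likelihood test with Benjamini-Hochberg adjustment over the 14411 genes, and a gene was called where that value was below 0.05.

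Between classes, with group in the same fit, 37 of 53 members were called (69.8%), where 51.9% of all genes tested were called. In class B 16 members were higher and 21 lower (25.5% and 26.3% of all genes), and the median member difference was -0.10 on the log2 scale, against -0.02 over all genes. The members' summed level was 4637 ± 119 CPM in class A (SD, n = 20) and 4331 ± 96.2 in class B (SD, n = 15). Of the 53, 12 (22.6%) had classes that did not overlap at all, against 10.4% of all genes. The classes were defined from these libraries and from no label, so calls between them describe how genes lie along this split and are no independent test, and no p is given for them. The origin of the classes was not tested. Summed markers of excitatory neurons moved with them, at 3186 ± 388 CPM in class A and 2658 ± 143 in class B, and their part in the members' differences was not tested. Rn7sl1, a noncoding RNA that helps guide new proteins to the endoplasmic reticulum, made up 4.47 to 6.49% of counts over the class A libraries and 2.90 to 3.84% over the class B libraries, without overlap, and its part was not tested either. In whole tissue, fewer cells of a type and less RNA per cell cannot be told apart.

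The members of one complex did not move together between classes. Over all genes tested 25.5% were higher in class B and 26.3% lower, so mixed directions in this and the other complexes are not particular to these genes. In complex III, the core protein gene Uqcrc2 measured 133 to 166 CPM in class A (median 153) and 182 to 229 in class B (median 206). Its partner Uqcrc1 measured 136 to 163 CPM in class A (median 147) and 100.2 to 128 in class B (median 116). Neither gene's classes overlapped, and the pair moved in opposite directions, Uqcrc2 higher in class B by 0.39 ± 0.038 (log2, SE) and Uqcrc1 with a log2 difference of -0.29 ± 0.039. The log2 ratio of Uqcrc2 to Uqcrc1 was -0.16 to 0.26 in class A (median 0.05) and 0.53 to 1.09 in class B (median 0.89). The smaller complex III subunits split as well. Uqcr10 (-0.50 ± 0.051), Uqcr11 (-0.49 ± 0.040) and Uqcrq (-0.46 ± 0.061) were lower in class B, Uqcrb was higher (0.28), and Uqcrfs1, the iron-sulfur protein that takes electrons from ubiquinol, was higher by 0.16. In all, 3 of 8 complex III members were higher in class B and 5 lower.

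**Figure D1:**
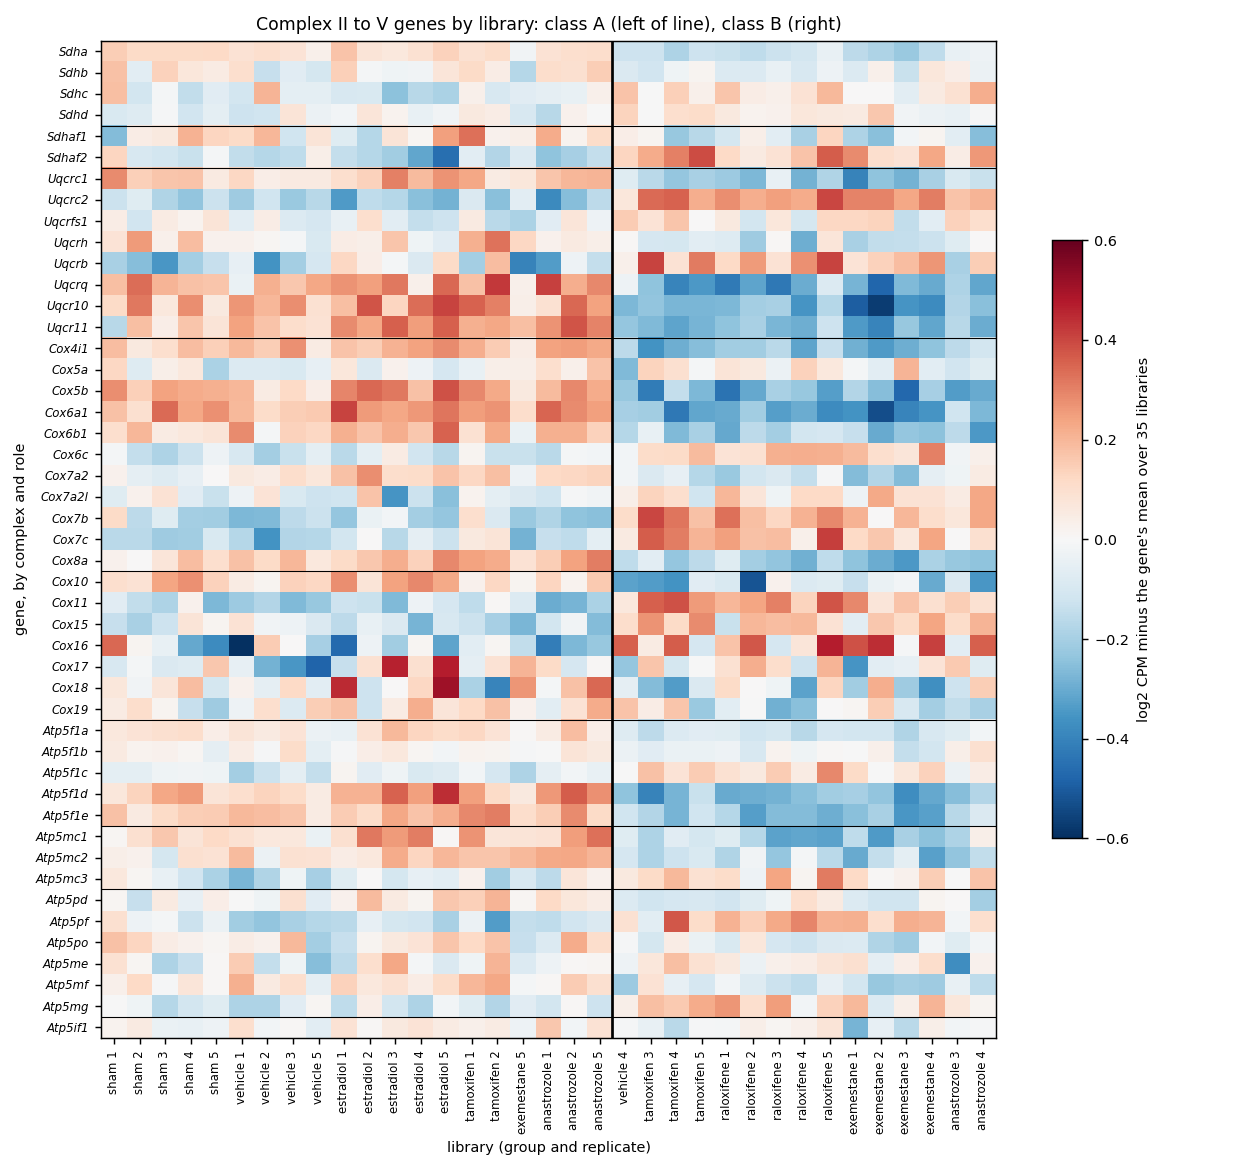
Heat map of the members with a median count of at least 50 (47 genes, 8 left out), as log2 CPM minus the gene's mean over the 35 libraries. Columns are libraries, with the 20 of class A left of the line and the 15 of class B right of it, and rows are genes by complex. Within each complex some rows are high and others low on the right of the line.

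Complex IV showed the same split. Of its 13 subunits tested, 3 were higher and 6 lower in class B, and of its 9 assembly factors 3 were higher and 1 lower. Cox6a1, the common isoform of a subunit near the dimer interface, measured 145 to 179.9 CPM in class A (median 162) and 93.9 to 125 in class B (median 109), without overlap (log2 difference -0.49 ± 0.039). Cox5b (-0.46 ± 0.046), Cox4i1 (-0.39 ± 0.033), Cox8a (-0.39 ± 0.037) and Cox6b1 (-0.33) were also lower in class B. Cox7c measured 52.0 to 70.2 CPM in class A (median 59.7) and 66.7 to 88.8 in class B (median 75.3), overlapping in part, and was higher in class B by 0.25 on the log2 scale. The log2 ratio of Cox7c to Cox6a1 ran from -1.59 to -1.22 over class A and from -0.91 to -0.24 over class B. Cox7b (0.33) and Cox6c (0.16) were higher too. Among assembly factors, Cox11, which inserts copper, was higher (0.34, without overlap), as were Cox15 (0.30) of the heme A pathway and Cox16 (0.37), while Cox10, the step before Cox15, was lower (-0.29). Cox5a (-0.07), Cox17 (-0.04) and Cox7a2l, which joins complex III to complex IV (0.13), were not called.

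In complex II, Sdha, the flavoprotein that oxidises succinate, was lower in class B (-0.18 ± 0.025), at 207 to 237 CPM over class A and 180.1 to 206 over class B. The iron-sulfur subunit gene Sdhb was not called. The assembly factor genes Sdhaf2 (0.33), whose product helps attach the flavin to Sdha, and Sdhaf4 (0.44) were higher, and Sdhaf1, needed for the iron-sulfur subunit, was lower (-0.21). In ATP synthase, 3 of 5 genes of the F1 part were lower and 1 higher. This part joins the catalytic head (alpha and beta) to the central stalk (gamma, delta and epsilon). Atp5f1d (delta, -0.43 ± 0.041) and Atp5f1e (epsilon, -0.37) were lower without overlap, Atp5f1c (gamma) was higher (0.15), and Atp5f1b (beta) was not called (-0.04 ± 0.031, at 719.6 to 809 CPM over class A and 678 to 802 over class B). The 3 genes of the c-ring encode the same mature protein behind different targeting sequences. Atp5mc1 and Atp5mc2 (-0.33) were lower and Atp5mc3 higher (0.18). Of the 6 peripheral stalk and membrane genes 2 were higher, Atp5pf (0.27) and Atp5mg (0.19), and 2 lower. The inhibitor Atp5if1, which blocks ATP hydrolysis, was not called (-0.08).

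The class differences ran with the authors' own factors. Over 52 members with a factor, the difference of the log2 factor between classes and the fitted log2 difference of counts correlated with r = 0.803 (rho = 0.809) and had the same sign for 44. Over 14051 genes r was 0.803 and 11871 had the same sign. These are correlations across genes in the same libraries and carry no p. With the factors in the fit as offsets, which was an alternative added after seeing the data, 26 members were called between classes (10 higher, 16 lower), against 27.2% of all genes (14.2% higher and 13% lower). The difference then was -0.02 for Atp5f1d and -0.09 for Cox6a1, but 0.25 for Uqcrc2 and -0.45 for Uqcrq.

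**Figure D2:**
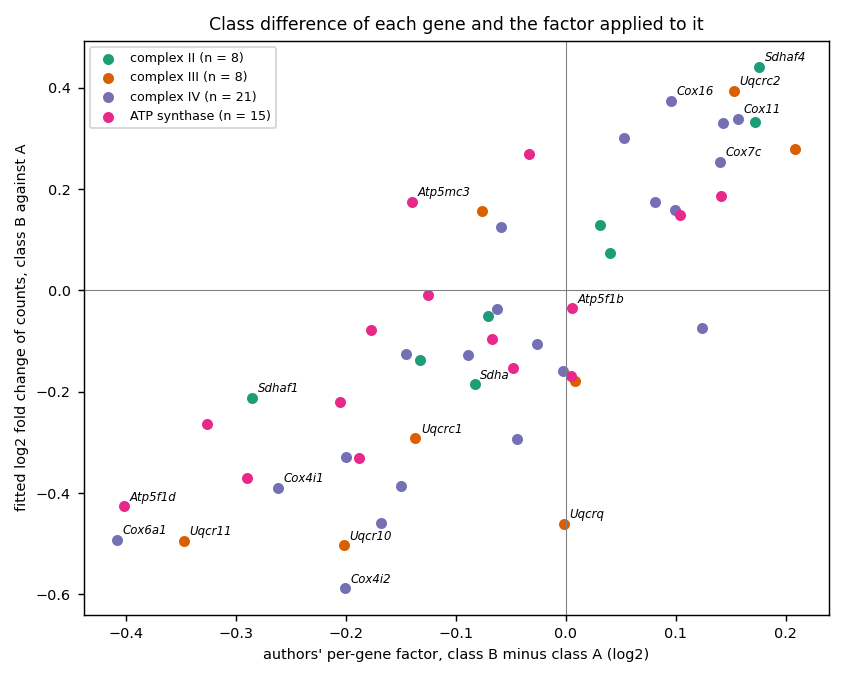
Each point is 1 of 52 members, with the log2 authors' factor in class B minus class A on the x axis and the fitted log2 difference of counts between the same classes on the y axis, coloured by complex. Points rise from lower left to upper right (r = 0.803), and Uqcrq lies low at a factor difference near 0.

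In raloxifene against vehicle with group alone, 26 of 53 members were called (49.1%, against 24.8% of all genes tested, 3568 genes), 13 higher and 13 lower (13.4% and 11.4% of all genes). The higher members included Uqcrc2, Cox7c, Cox11 and Atp5pf, and the lower ones Cox6a1, Cox4i1, Uqcrq and Atp5f1e. The median over members was -0.01 on the log2 scale and over all genes -0.02, so neither direction prevailed. With class in the fit 0 of 53 were called by edgeR, where 7 had an unadjusted p under 0.05 and 0.00694% of all genes were called. DESeq2 called 28 members with group alone. Its count over all genes is not given here, so the 28 are not read as particular to the members. Summed oligodendrocyte markers were 5223 ± 350 CPM after raloxifene and 6208 ± 491 after vehicle (SD, n = 5 each). Rn7sl1 took 3.12 to 3.62% of counts after raloxifene and 3.44 to 4.84% after vehicle. The part of either in these differences was not tested. Class and raloxifene cannot be told apart beyond what vehicle 4 and the class B libraries of other treatments allow.

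Uqcrc2 measured 210.1, 201, 206, 202 and 229 CPM after raloxifene and 149.7, 159.8, 149, 182 and 154 after vehicle. The groups did not overlap, and the highest vehicle library was the class B one, vehicle 4. The log2 difference was 0.40 ± 0.100 (SE; adjusted p = 0.0124) with group alone and 0.09 (adjusted p = 0.959) with class. Cox7c measured 78.9, 75.3, 75.6, 67.9 and 88.8 CPM after raloxifene and 59.2, 52.0, 59.0, 69.1 and 59.2 after vehicle, where vehicle 4 again lay highest, above raloxifene 4. Its difference was 0.37 ± 0.081 (adjusted p = 0.0111) with group alone and 0.18 (adjusted p = 0.819) with class. Atp5pf, coupling factor 6 of the stalk, measured 58.2, 55.6, 59.0, 61.8 and 58.1 CPM against 43.7, 42.8, 44.1, 53.8 and 44.7, without overlap (0.35 ± 0.086, adjusted p = 0.0115). Cox11 measured 30.9, 31.7, 33.2, 29.6 and 35.02 CPM against 23.1, 23.8, 22.4, 28.1 and 23.01, also without overlap (0.41 ± 0.097, adjusted p = 0.0113, and 0.937 with class). In both genes vehicle 4 was the vehicle library nearest to raloxifene. The other higher members were Atp5f1c (0.23 ± 0.058), Cox6c (0.27 ± 0.066), Cox17 (0.38 ± 0.108), Cox20, which helps build the copper-bearing subunit Mt-co2 (0.52), Cox7b (0.37), Uqcrb (0.36), Atp5mc3 (0.26), Atp5mg (0.23) and Cox5a (0.17).

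Cox6a1 measured 110.3, 118, 108, 111 and 105 CPM after raloxifene and 156, 147, 151, 119 and 152 after vehicle. The groups did not overlap, but vehicle 4 lay just above the highest raloxifene library. The difference was -0.39 ± 0.120 (adjusted p = 0.0215) with group alone and 0.01 with class. Atp5f1e measured 45.2, 40.4, 42.5, 42.5 and 41.5 CPM against 58.3, 57.8, 57.1, 46.8 and 52.6, without overlap (-0.36 ± 0.097, adjusted p = 0.0136). Uqcrq, a small subunit of complex III, measured 32.1, 34.5, 31.9, 35.002 and 40.7 CPM against 41.9, 49.8, 48.1, 42.1 and 50.5, without overlap (-0.42 ± 0.129, adjusted p = 0.0218). Cox4i1, the common isoform of the regulatory subunit IV, had a difference of -0.32 ± 0.097 with group alone (adjusted p = 0.0213) and 0.00 with class. The other lower members were Uqcr10 (-0.36), Cox5b (-0.34), Atp5f1d (-0.31), Cox8a (-0.27), Atp5mc1 (-0.26), Cox6b1 (-0.25), Uqcrc1 (-0.24), Cox7a2 (-0.17) and Sdha (-0.15). By role, all 3 assembly factors called in complex IV were higher, as were both called genes of the peripheral stalk and membrane part of ATP synthase. Of the 10 called complex IV subunits 6 were lower. The 3 called genes of the F1 part were all of the central stalk, with Atp5f1c higher and Atp5f1d and Atp5f1e lower. With the authors' factors as offsets 10 members were called, 9 of them higher (Uqcrc2, Cox6c, Cox7b, Cox7c, Cox11, Cox17, Atp5f1c, Atp5mc3 and Atp5pf) and Uqcrq lower, against 6.41% of all genes (4.41% higher and 2% lower). Without the libraries of high Ttr described at the end, 11 members were called, 9 higher and 2 lower, among 1754 genes in all. The count of members was 11 without vehicle 1 and 11 without vehicle 3, 14 without vehicle 2, 13 without raloxifene 5, and 16, 17, 16, 16 and 16 without raloxifene 1, 2, 3 and 4 and vehicle 5. Over all 10 fits without 1 library of these groups, 11 to 27 members and 1735 to 4501 genes in all were called. The 27 members were called without vehicle 4, the class B library of its group.

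**Figure D3:**
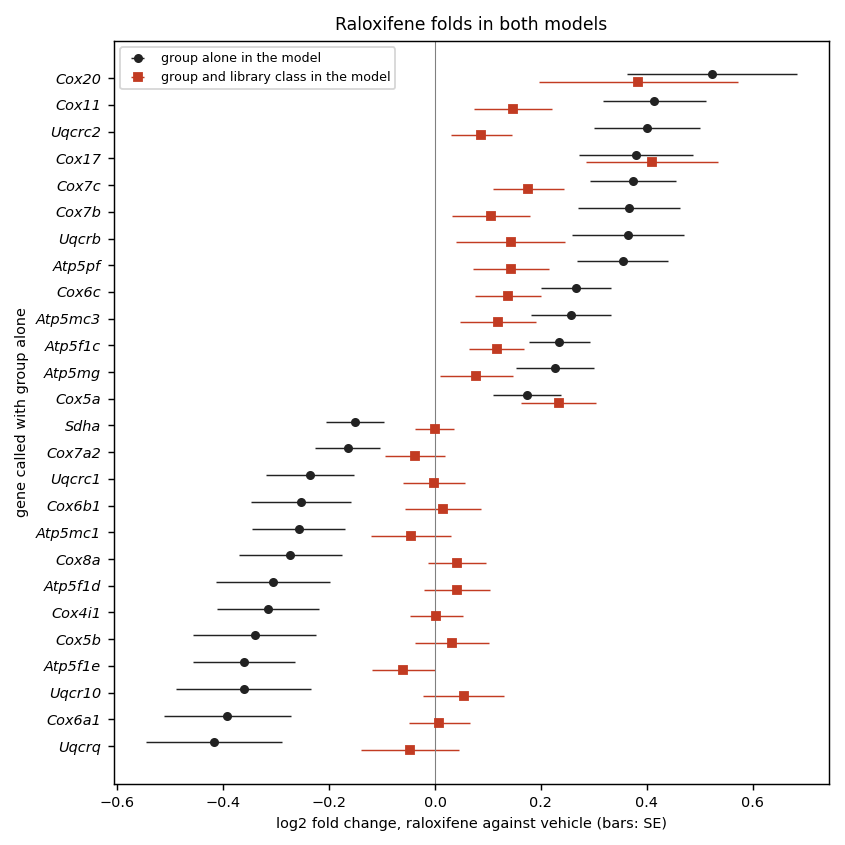
Log2 difference of raloxifene from vehicle with its standard error for the 26 members called with group alone, fitted with group alone and with class added. With class added, most points move toward 0, and Cox17 and Cox5a move slightly away from it.

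In the fit with class, the smallest adjusted p among members for raloxifene was that of Cox5a, a structural subunit of complex IV (0.23 ± 0.071, adjusted p = 0.654). Cox5a measured 76.7, 75.9, 71.0, 80.0 and 76.1 CPM after raloxifene and 68.7, 68.6, 68.2, 60.6 and 70.3 after vehicle. The groups did not overlap, and vehicle 4 lay lowest, on the side away from raloxifene. Cox17 kept its size with class (0.41, adjusted p = 0.682), but it did not pass there.

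In exemestane against vehicle with group alone, 6 of 53 members were called (11.3%, against 6.51% of all genes, 938 genes, with 4.06% higher and 2.45% lower). Uqcrc2 and Cox6c rose, and Uqcr10, Cox4i1, Sdha and Cox7a2 fell. Uqcrc2 measured 213, 213, 204, 215 and 166 CPM after exemestane (0.35 ± 0.100, adjusted p = 0.0451). Exemestane 5, the only class A library of its group, lay among the vehicle libraries. Uqcr10 measured 26.6, 25.2, 29.3, 28.8 and 38.3 CPM after exemestane and 44.9, 43.0, 45.3, 31.1 and 39.8 after vehicle (-0.46 ± 0.128, adjusted p = 0.0445). Here exemestane 5 and vehicle 4 crossed into the range of the other group. Cox4i1 measured 194, 187, 193, 200.3 and 244 CPM after exemestane and 271, 263, 286, 213 and 245 after vehicle (-0.33 ± 0.097, adjusted p = 0.0454), with the same 2 libraries crossing.

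Cox7a2, a small subunit of complex IV, was the called member whose groups did not overlap, at 52.3, 55.5, 52.3, 60.3 and 61.3 CPM after exemestane and 65.1, 64.7, 67.5, 62.0 and 65.7 after vehicle (-0.21 ± 0.062, adjusted p = 0.0457). Sdha measured 189, 185, 180.1, 189 and 207 CPM after exemestane and 224, 225, 222, 193 and 215 after vehicle (-0.19 ± 0.055, adjusted p = 0.0456). Cox6c rose by 0.21 ± 0.066 (adjusted p = 0.0487). All 6 adjusted p-values lay close to the threshold. With class in the fit 0 members were called by edgeR (5 with an unadjusted p under 0.05), and 0 of all genes. DESeq2 called 15 with group alone, 5 higher and 10 lower, where it called 1972 genes in all. Summed oligodendrocyte markers were 5025 ± 619 CPM after exemestane (SD, n = 5), below the vehicle level given above, and Rn7sl1 took 3.51 to 5.81% of counts. The part of either in these calls was not tested. The count was 23 (8 higher, 15 lower) without exemestane 5, 20 (8 higher, 12 lower) without vehicle 4, and 0 without any other single library of these groups. Over these 10 fits 0 to 4155 genes in all were called, so the count of members moved together with that of all genes. The count of members was also 0 in a fit of the 10 libraries alone, where 0 genes in all were called. It was 1 (Uqcr10) with the authors' factors, where 0.93% of all genes were called.

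In tamoxifen against vehicle 0 of 53 members were called by edgeR, as were 0% of all genes, where 13 members had an unadjusted p under 0.05. DESeq2 called 1 member, Cox7c, and 83 genes in all. Cox7c measured 69.4, 70.2, 85.6, 82.4 and 76.6 CPM after tamoxifen, all above the 52.0 to 69.1 of vehicle. The difference was 0.36 ± 0.082 (adjusted p = 0.0935) with group alone and 0.26 ± 0.060 (adjusted p = 0.143) with class. It passed with the authors' factors as offsets (0.32 ± 0.066, adjusted p = 0.0473), where 0.146% of all genes passed. Cox5a measured 70.5, 74.5, 79.9, 77.8 and 72.2 CPM, also above every vehicle library (0.15, adjusted p = 0.25). The next members by p were Cox11 (0.34, adjusted p = 0.139), Cox7b (0.33, adjusted p = 0.157) and Atp5f1c (0.17). The count of called members was 5 without tamoxifen 2, 1 without tamoxifen 1 and 1 without vehicle 4. Over the 10 fits without 1 library of these groups, 0 to 581 genes in all were called.

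In estradiol against vehicle 0 members were called by edgeR with group alone, against 0.00694% of all genes. An unadjusted p under 0.05 was found for 5, and DESeq2 called 1, Cox17, among 16 genes in all. Cox17, the copper chaperone of complex IV, measured 13.6, 15.99, 20.6, 16.03 and 20.7 CPM after estradiol and 14.5, 12.3, 11.8, 12.8 and 10.7 after vehicle. Only estradiol 1 lay within the vehicle range, and the means were 17.4 ± 3.16 and 12.4 ± 1.37 CPM (SD, n = 5 each). The log2 difference was 0.49 ± 0.109, with an adjusted p of 0.118 for group alone and 0.0395 with class in the fit, where 0.298% of all genes (0.222% higher) and 1 of 53 members were called. All estradiol libraries and 4 of the vehicle libraries are of class A, so the classes hardly differ here. Leaving out each of the 10 libraries in turn in the fit with class gave adjusted p-values from 0.0185 to 0.17, of which 4 passed. Without the libraries of high Ttr the difference was 0.52 (adjusted p = 0.0555).

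Across the members, 39 of 53 differences from vehicle after estradiol were positive, against 6923 of 14411 over all genes, with a median of 0.07 against -0.01 over all genes, and with class the median was 0.04 against 0.00. The members' summed level was 4698 ± 78.4 CPM after estradiol and 4490 ± 141 after vehicle (SD, n = 5 each), where vehicle 4 is of class B, the class of lower summed level. This shift was described and not tested as a set. Summed oligodendrocyte markers were 5017 ± 112 CPM after estradiol, below the vehicle level given above, and their part in the members' levels was not tested. Atp5f1d measured 119.6, 119.5, 132, 123 and 141 CPM after estradiol and 111, 113, 112, 87.7 and 107 after vehicle. The groups did not overlap, but the difference did not pass (0.26 ± 0.107, adjusted p = 0.469, and 0.154 with class). Cox5b (0.26, adjusted p = 0.506) and Sdhc, a membrane anchor of complex II (-0.19, adjusted p = 0.384), did not pass either.

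In sham against vehicle, the comparison of intact with removed ovaries, 0 members were called by edgeR and 0 by DESeq2, with 2 at an unadjusted p under 0.05 and 0% of all genes called. With class edgeR again called 0, with 6 at an unadjusted p under 0.05 and 0.0416% of all genes called. Uqcrh, the hinge protein of complex III, measured 52.3, 59.1, 50.6, 56.4 and 50.4 CPM in sham and 50.4, 49.9, 49.1, 49.7 and 46.5 in vehicle. The groups touched without overlapping, and the difference did not pass (0.13 ± 0.079, adjusted p = 0.853). Sdhb (0.14, adjusted p = 0.65) and Cox17 (0.26, adjusted p = 0.636) had the smallest p-values. In anastrozole against vehicle 0 members were called by edgeR and 0 by DESeq2, with 3 at an unadjusted p under 0.05 and 0% of all genes called. The smallest p-values were those of Cox17 (0.30), Sdhb (0.13), Cox5a (0.14) and Atp5mc3 (0.15).

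Cox17 and Cox5a had their lowest group mean in vehicle, as did other members such as Atp5f1c, Atp5mc3 and Cox11. The share of members or of all genes with this trait was not counted. Cox17 means were 14.8 CPM in sham, 12.4 in vehicle, 17.4 after estradiol, 15.2 after tamoxifen, 16.1 after raloxifene, 14.7 after exemestane and 15.2 after anastrozole. Cox5a means were 72.6 CPM in sham, 67.3 in vehicle, 71.7 after estradiol, 75.0 after tamoxifen, 76.0 after raloxifene, 74.0 after exemestane and 74.2 after anastrozole. Each of these differences rests on the same 5 vehicle libraries, so their common direction is no repeat of a finding. With group alone both passed for raloxifene, Cox17 with an adjusted p of 0.016 and Cox5a with 0.0471. Single libraries overlapped between groups, as for Cox17 in exemestane 1 (11.7 CPM) and for Cox5a in sham 5 (63.9 CPM).

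**Figure D4:**
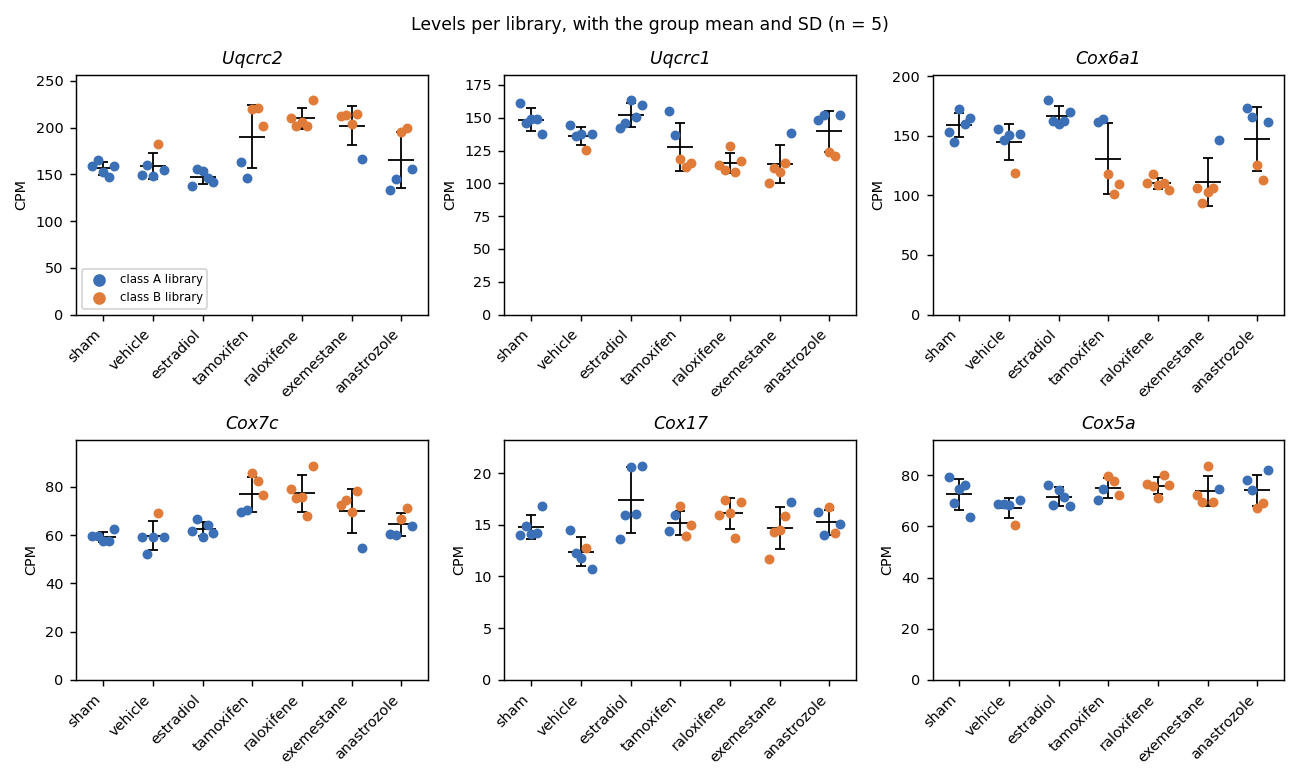
Levels in CPM of Uqcrc2, Uqcrc1, Cox6a1, Cox7c, Cox17 and Cox5a in each of the 35 libraries by group, with the group mean and SD and the points coloured by library class. For Uqcrc2, Uqcrc1 and Cox6a1 the colours separate without overlap, while for Cox17 and Cox5a they mix.

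Among all 7 groups, 29 of 53 members differed (54.7%, against 37.0% of all genes) with group alone. With class in the fit edgeR called 0 of 53 members and 0.0278% of all genes (4 genes), with 15 members at an unadjusted p under 0.05. With group alone DESeq2 called 31 members, which likewise stand without its count over all genes. With the authors' factors 17 members were called (32.1%, against 17.7% of all genes). For 4 core genes the differences from vehicle were small. Atp5f1b differed from vehicle by -0.06 to 0.04 and Uqcrfs1 by -0.05 to 0.05 over the 6 comparisons on the log2 scale. The inhibitor Atp5if1 differed by -0.10 to 0.05 and Cox7a2l by -0.10 to 0.12, and none of these 4 was called in any comparison with vehicle.

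Other genes of the same pathways were counted from lists chosen with earlier results of these data known. For raloxifene with group alone, 13.4% of all genes were higher and 11.4% lower, and several of the counts that follow lie near these shares. There 1 of 8 genes of complex III assembly and cytochrome c was higher, namely Cycs, cytochrome c itself (0.58, adjusted p = 0.018). Of 15 further complex IV genes 4 were higher, among them the late-added subunit Ndufa4 (0.25), and of 6 ATP synthase assembly factors 2 were higher. Of 15 regulators of mitochondrial biogenesis 3 were higher and 2 lower, Polrmt, the mitochondrial RNA polymerase, by -0.55. Of 37 complex I subunits 5 were higher and 6 lower. Of the 5 mitochondrially encoded genes of complexes III to V tested, 4 were higher. For exemestane, where 4.06% of all genes were higher and 2.45% lower, 1 of the further complex IV genes, 1 regulator and 2 complex I subunits were higher, and 1 complex I subunit was lower. With class in the fit, 0 genes of these lists were called by edgeR in any comparison with vehicle.

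Between classes, where 25.5% of all genes were higher in class B and 26.3% lower, all 5 mitochondrially encoded genes were higher. Transcripts of these genes took 2.86% of counts in class A and 3.74% in class B, while the nuclear-encoded members took 0.466 ± 0.0138% (SD, n = 20) and 0.430 ± 0.0133% (SD, n = 15). Cycs was higher in class B by 0.68 ± 0.058, and Cyc1, the cytochrome subunit of complex III that feeds it, was lower (-0.32). Of the 37 complex I subunits 6 were higher and 24 lower. Of the 15 regulators 7 were higher, including Gabpa (0.56), and 4 lower, including Esrra (-0.45) and Polrmt (-0.61). After estradiol the mitochondrially encoded genes had a median of -0.26 with 5 of 5 negative, and 0 were called by edgeR.

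Tissue isoforms were at the edge of detection. Cox4i2, the isoform known from lung, had 1 to 23 counts per library, and the 2 members below the filter, Cox6a2 of heart and muscle and Cox6b2 of testis, did not exceed 13. Cox8b, the muscle partner of Cox8a, had 0 to 23 counts and differed between libraries along with Ttr, the gene for transthyretin that defines the choroid plexus. In the 20 libraries with Ttr below 100 CPM (at most 65.8), Cox8b had 0 to 3 counts. In the 15 with Ttr at or above 100 CPM (at least 831.8), it had 5 to 23 counts, so these sets did not overlap. Pooled, that was 26 counts (0.156 CPM) and 179 counts (1.49 CPM), a ratio of 9.55, which does not show the spread between libraries. The libraries were divided here by a measured level, so no test was made. Cox8b was the only 1 of 53 members (1.89%) whose levels did not overlap between these sets, against 0.659% of all genes. It passed the filter on low counts only through libraries of high Ttr. Its place among the 53 thus followed from this split, and the share lends it no weight. Sham and anastrozole each had 3 libraries of high Ttr, estradiol had 1, and each of the other groups had 2.

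**Figure D5:**
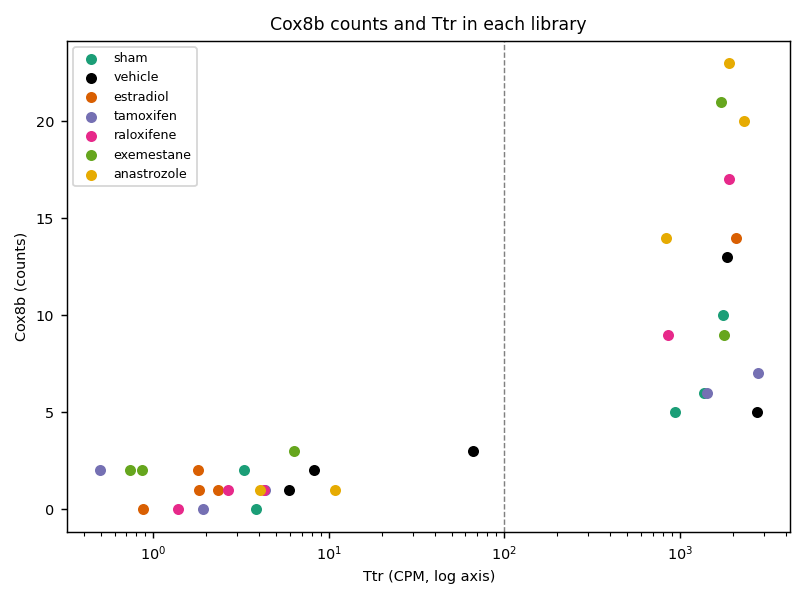
Cox8b counts per library against Ttr in CPM (log axis) for the 35 libraries, with a dashed line at 100 CPM. The 20 libraries left of the line have 0 to 3 counts and the 15 right of it have 5 to 23.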

How the data were processed

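Poly(A)-selected, stranded RNA libraries of rat hippocampus were sequenced, per the labels' protocols. The main input was the deposited table of estimated counts, which are whole numbers and come from Salmon per the submitters' processing notes. A second deposited table, of DESeq2 normalised values by the same notes, is a signal scaled by the authors with a factor per gene and library, and it was used for those factors alone. The genome build and annotation behind the counts are not given in the sources used here. The other analyses below were made from these tables.

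Counts were fitted with edgeR 4.0.16 (R 4.3.3, limma 3.58.1) by the robust quasi-likelihood test with TMM factors and filterByExpr by group, over all 35 libraries, with Benjamini-Hochberg adjustment over 14411 genes. The residual spread was taken on log2 CPM with a prior count of 2, and heat map values used no prior count. DESeq2 1.42.0 was an alternative. Library class was the sign of the first component of the authors' log2 factors, centred per library and per gene. Library totals of 5578204 to 12093294 counts set the precision. Levels in CPM are not scaled for gene length, so single genes, sums over genes and ratios of 2 genes were compared only between libraries. A sum is weighted to genes of high CPM, in the members' sum to Atp5f1b and Atp5f1a (medians 754 and 458 CPM).

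Alternatives were class as a term, each class alone, the authors' factors as offsets, DESeq2's size factors, DESeq2 itself, no filter on low counts, libraries of Ttr under 100 CPM, the compared groups alone, and each library left out. Fits that combine class with the authors' factors and with the Ttr limit were added after seeing the data. Genes named are fixed core subunits and tissue isoforms, the members of smallest p per comparison (up to 6 in each direction where called, otherwise 4), the same between classes and in the fit with class. The remaining called members are listed by difference alone. The members and lists were chosen with earlier results of these data known. Antisense or near-identical gene copies were not separated further.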

Additional observations from a re-analysis of the deposited data

Results flagged for a closer look

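Within the groups of 5 libraries, 14 of 238 sets of values (34 members in 7 groups) held 1 library far from the others by Dixon's ratio, and chance gives about 1 in 20. The members checked were named ones, some of them picked for their difference between classes, which favours flags in a library alone in its class. Of the 14, 10 belong to the only library of its class in its group. In vehicle 4 these were Atp5f1d at 87.7 CPM (others 107 to 113), Atp5pf at 53.8 (42.8 to 44.7), Cox11 at 28.1 (22.4 to 23.8), Cox5a at 60.6 (68.2 to 70.3) and Cox6a1 at 119 (147 to 156). In exemestane 5 these were Cox4i1 at 244 CPM (others 187 to 200.3), Cox6a1 at 146 (93.9 to 106), Uqcr11 at 126.8 (85.1 to 95.5), Uqcrc2 at 166 (204 to 215) and Uqcrh at 54.0 (43.2 to 45.3).

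The other 4 were Cox6b1 at 55.8 CPM in estradiol 5 (others 48.7 to 50.6), Sdha at 233 in sham 1 (227 to 228), Sdhb at 63.6 in vehicle 1 (53.8 to 56.6) and Uqcrq at 54.3 in sham 2 (48.2 to 49.5).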

How the results depend on the processing

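No paired analysis was possible because the libraries' titles carry no replicate number that groups share. With class as a term, the count of called members was 1 for estradiol, 0 for raloxifene, 0 for exemestane and 0 among the 7 groups. With the authors' factors it was 1 for tamoxifen, 10 for raloxifene, 1 for exemestane and 17 among groups. Without the libraries of high Ttr it was 11 for raloxifene (1754 genes in all), 0 for exemestane (0), 9 among groups (2235) and, with class, 0 for estradiol (156). In class A alone (1 exemestane library) it was 0 for exemestane, and in class B alone (1 vehicle library) 0 for raloxifene and 0 for exemestane. These fits assume that the lone library varies like the others, and their counts of 0 say little. In the compared groups alone it was 0 for exemestane. DESeq2 called 1 for estradiol (16 genes in all), 1 for tamoxifen (83) and 15 for exemestane (1972). Neither DESeq2's size factors nor the lack of a filter moved a count by over 1.5 times. Leaving out 1 library gave 0 to 5 for tamoxifen (0 to 581 genes in all), 11 to 27 for raloxifene (1735 to 4501) and 0 to 23 for exemestane (0 to 4155). It gave 26 to 30 among groups (4672 to 6224 genes in all), 36 to 39 between classes (6749 to 7722) and 0 to 1 for estradiol with class (2 to 65). For sham, estradiol, anastrozole and the other fits with class it gave 0 to 0.

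Differences that changed sign were small after the change, but some had been called with group alone. For raloxifene these were Cox4i1 (-0.32), Cox6a1 (-0.39), Cox5b (-0.34), Uqcrq (-0.42) and Atp5mc1 (-0.26), and for exemestane Cox6c. With class, the raloxifene differences were 0.00189 for Cox4i1, 0.00843 for Cox6a1 and 0.0324 for Cox5b. With the authors' factors they were 0.00438 for Atp5mc1 and -0.00742 for Atp5pd, and with class and factors -0.0109 for Cox6a1 and -0.00433 for Cox5b. Without the libraries of high Ttr they were 0.0526 for Uqcrq and 0.0334 for Atp5mc1 for raloxifene with class and -0.0638 for Atp5f1d for anastrozole. In class A alone Cox6c was -0.0087 for exemestane, and in the compared groups alone Atp5pd was -0.00031 for raloxifene. Leaving out 1 library in the raloxifene fit with class gave -0.0180 to 0.0402 for Cox4i1, -0.0173 to 0.0805 for Cox6a1, -0.106 to 0.0899 for Uqcrq and -0.0838 to 0.0283 for Atp5mc1, and with group alone -0.0105 to 0.0445 for Atp5pd. The cause was not tested. Cox4i2, Cox8b, Cox14 and Sdhaf3, at 33 counts or fewer in every library, are limited by depth.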
